A study of Felis catus with 12 samples.

Results

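Transcripts of 8 genes of the interferon response and of antigen presentation were followed in the left ventricle of 12 cats. The genes were chosen by name: *B2M* and *TAP1* of the class I pathway, *CD74* of the class II pathway, the transcription factor *IRF1*, and the interferon-stimulated genes *ISG15*, *IFI6*, *IFIT3* and *MX1*. They are 8 of the 30785 rows of the deposited gene table. Of these, 6 were listed under their symbol, while *TAP1* (row LOC101083591) and *MX1* (row LOC101085996) were found by their NCBI gene numbers.

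The tissue was left ventricular free wall of domestic cats, taken after death, and its mRNA was sequenced directly as RNA on Oxford Nanopore flow cells. Each cat gave a single library, without replicates, so p-values measure the spread between cats and include technical error. The labels give a cat number, a barcode and a flow cell, and no disease. Flow cell PAK20671 carried the libraries of cats 11, 23, 30 and 31, flow cell PAM73681 those of cats 10, 15, 35 and 36, and flow cell PAM73696 those of cats 37, 38, 29 and 22. Each cat was read on a single flow cell, so a flow cell and the cats on it cannot be told apart. The study's own cohort list gives congestive HF for cats 11, 15, 30, 31, 35 and 37, ATE for cats 10, 23 and 38, and no known cardiac death for cat 36. The study's separate list of sequenced cats lacks cats 22 and 29 and names cats 16 and 25 in their place, so the animals behind these 2 libraries are uncertain. The cohort list does hold the numbers 22 and 29, but no outcome is carried over from it to these 2 libraries here. Because the labels carry no outcome, outcomes were not compared. The libraries held between 789257 and 2263110 reads on genes. All 12 genes on a list of cardiomyocyte markers and all 14 endothelial markers passed the filter on reads, while none of the 7 red cell markers in the table did. The red cell list held 10 genes, and 2 of the 7 in the table had no read in any library. It therefore gives no measure of red cells in the tissue.

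Cells that sense a virus or damaged nucleic acid release type I interferons, which bind receptors at the cell surface and switch on a broad antiviral programme. ISG15 is a small protein that is attached to other proteins, IFI6 is a membrane protein that limits viral replication, IFIT3 belongs to a family that restrains foreign RNA, and MX1 is a GTPase that traps viral particles. Interferon also raises antigen presentation: *B2M* encodes the light chain of every class I molecule, TAP1 forms part of the pump that carries peptides to class I molecules, and CD74 is the invariant chain that guides class II molecules in macrophages, dendritic cells and B cells. IRF1 is a transcription factor that drives several of these genes, above all in response to interferon gamma.

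Values are normalised read counts, which are reads per gene divided by 1 size factor per library. A gene was tested if it had at least 10 reads in at least 3 libraries, which left 8820 genes. *B2M*, *CD74*, *TAP1*, *ISG15* and *IFI6* passed this filter, and *IRF1*, *IFIT3* and *MX1* did not. Transcript lengths were not used, so levels were compared between libraries and not between genes. In whole tissue, fewer cells of a type and less RNA per cell cannot be told apart.

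*ISG15* varied most among the 8 genes that were followed. Its normalised read count was 1423 in the library labelled cat 22, 245 in cat 37 and 239 in cat 10. It was 52.1 in cat 29, 33.1 in cat 38, 32.8 in cat 30, 32.3 in cat 35 and 24.2 in cat 23. The lowest values were 8.69 in cat 11, 8.01 in cat 36, 6.81 in cat 15 and 4.79 in cat 31. Thus 3 libraries on 2 flow cells stood above the rest, and the highest was 5.82 times the next, 43.7 times the median and 297 times the lowest. These ratios far exceed counting error: the library labelled cat 22 held 1054 *ISG15* reads, or 1196 RPM of the reads on genes (exact 95% binomial interval 1125 to 1271), against 6 reads in cat 31, or 3.77 RPM (1.38 to 8.21). Such intervals cover counting error only. The mean was 176 ± 402 (SD, n = 12), a coefficient of variation of 229%, where counting alone would give 8.58%. That coefficient exceeded the one of 99.98% of the tested genes, whose median was 40.2%. Without the library labelled cat 22, the mean was 62.4 ± 89.9 (SD, n = 11).

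*IFI6* was likewise highest in the library labelled cat 22, with a normalised read count of 4947. The next values were 2477 in cat 35, 1940 in cat 37, 1482 in cat 10 and 1415 in cat 15, followed by 867 in cat 38, 819 in cat 30 and 563 in cat 36. Cats 23 (359), 29 (211), 31 (138) and 11 (127) were lowest, so the range spanned 39.0-fold. The gene was read deeply, with 173 to 3664 reads per library, and its mean was 1279 ± 1378 (SD, n = 12). Cats 35 and 15 were high for *IFI6* while their *ISG15* values stood at 32.3 and 6.81.

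*IFIT3* had few reads, between 1 and 26 per library. Its normalised read count was 35.1 in the library labelled cat 22, 2.86 times the next value, which was 12.3 in cat 15. The other libraries lay between 0.788 in cat 35 and 8.58 in cat 37, around an overall median of 5.41. A spread of 120% stood against 39.6% from counting alone, so for this gene only the top value stood clearly apart.

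*MX1* was near the limit of detection in every library. Its highest normalised read count was 10.1 (12 reads) in cat 30, followed by 7.15 in cat 37, 6.75 in the library labelled cat 22, 6.72 in cat 23 and 3.86 in cat 11. Cats 38, 31 and 35 had 2.94, 1.60 and 0.788. No read was found in cats 10, 15, 29 and 36, where a count of 0 allows up to 3 reads, or normalised read counts of 3.38, 4.08, 3.33 and 2.67. The order of the libraries was not resolved at this depth, and *MX1* did not share its top library with the other interferon-stimulated genes that were followed. *MX1* and *IFIT3* have close relatives in the genome, and how reads shared between relatives were counted is not given in the sources used here.

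*B2M* followed a course like that of *ISG15*, over a narrower range. The normalised read count was 697 in the library labelled cat 22, then 319 in cat 37, 301 in cat 10, 279 in cat 38 and 245 in cat 30. It was 179 in cat 23, 147 in cat 11, 117 in cat 29 and 108 in cat 31, and lowest in cats 15 (91.2), 35 (86.6) and 36 (72.1). The highest value was 2.18 times the next and 9.66 times the lowest. The mean was 220 ± 174 (SD, n = 12), with a coefficient of variation of 79.1% against 7.10% from counting. By normalised read count, the 3 libraries that led for *ISG15* also led for *B2M*, in the same order. In RPM, cat 30 (239) came before cat 10 (236) for *B2M*. The exact 95% intervals of cats 37 (228 to 298), 30 (213 to 269), 10 (209 to 266) and 38 (209 to 257) overlapped. Below the library labelled cat 22, the order for *B2M* was therefore not resolved.

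*TAP1*, the peptide pump, showed another order. Its normalised read count was 15.8 (14 reads) in cat 10, 14.2 in cat 36, 12.6 in cat 30, 11.2 in cat 31 and 8.06 in cat 23. It was 2.72 in cat 15, 1.45 in cat 11, 1.43 in cat 37 and 0.788 in cat 35. There was no read in the libraries labelled cats 22, 29 and 38, where a count of 0 allows up to 4.05, 3.33 and 2.21. The library with the most *B2M* therefore held no detected *TAP1* transcript. With at most 16 reads per library, the spread of 109% stood against 41.8% from counting. Of 10 tested genes of the class I pathway, *B2M* among them, 4 (40%) were highest in the library labelled cat 22. Of all tested genes, 6.70% were highest there.

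*CD74*, the class II chaperone, had its highest values elsewhere. The normalised read count was 399 in cat 31, 314 in cat 35, 260 in cat 38 and 219 in cat 23, followed by 175 in cat 37, 171 in cat 11, 124 in cat 10, 114 in cat 30 and 105 in cat 29. The libraries of cats 36, 22 and 15 were lowest, with 85.5, 85.1 and 77.6. The mean was 177 ± 102 (SD, n = 12), a coefficient of variation of 57.7% against 7.33% from counting. Cat 31, which was highest for *CD74*, was lowest for *ISG15*. By normalised read count, the library labelled cat 22 was last but 1 for *CD74*. In RPM it had 71.5 (exact 95% interval 55.0 to 91.5), above cats 15 (58.5) and 36 (54.6), so its exact rank was not resolved.

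*IRF1* had at most 15 reads in a library. Its normalised read count was 12.2 in the library labelled cat 22, 10.1 in cat 30, 9.53 in cat 15, 7.24 in cat 11 and 6.76 in cat 10. It lay between 2.22 in cat 29 and 5.72 in cat 37 in the other libraries with a read, and no read was found in cats 36 and 38. The spread of 69.0% stood against 44.2% from counting, the smallest excess among the genes that were followed.

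**Figure D1:**
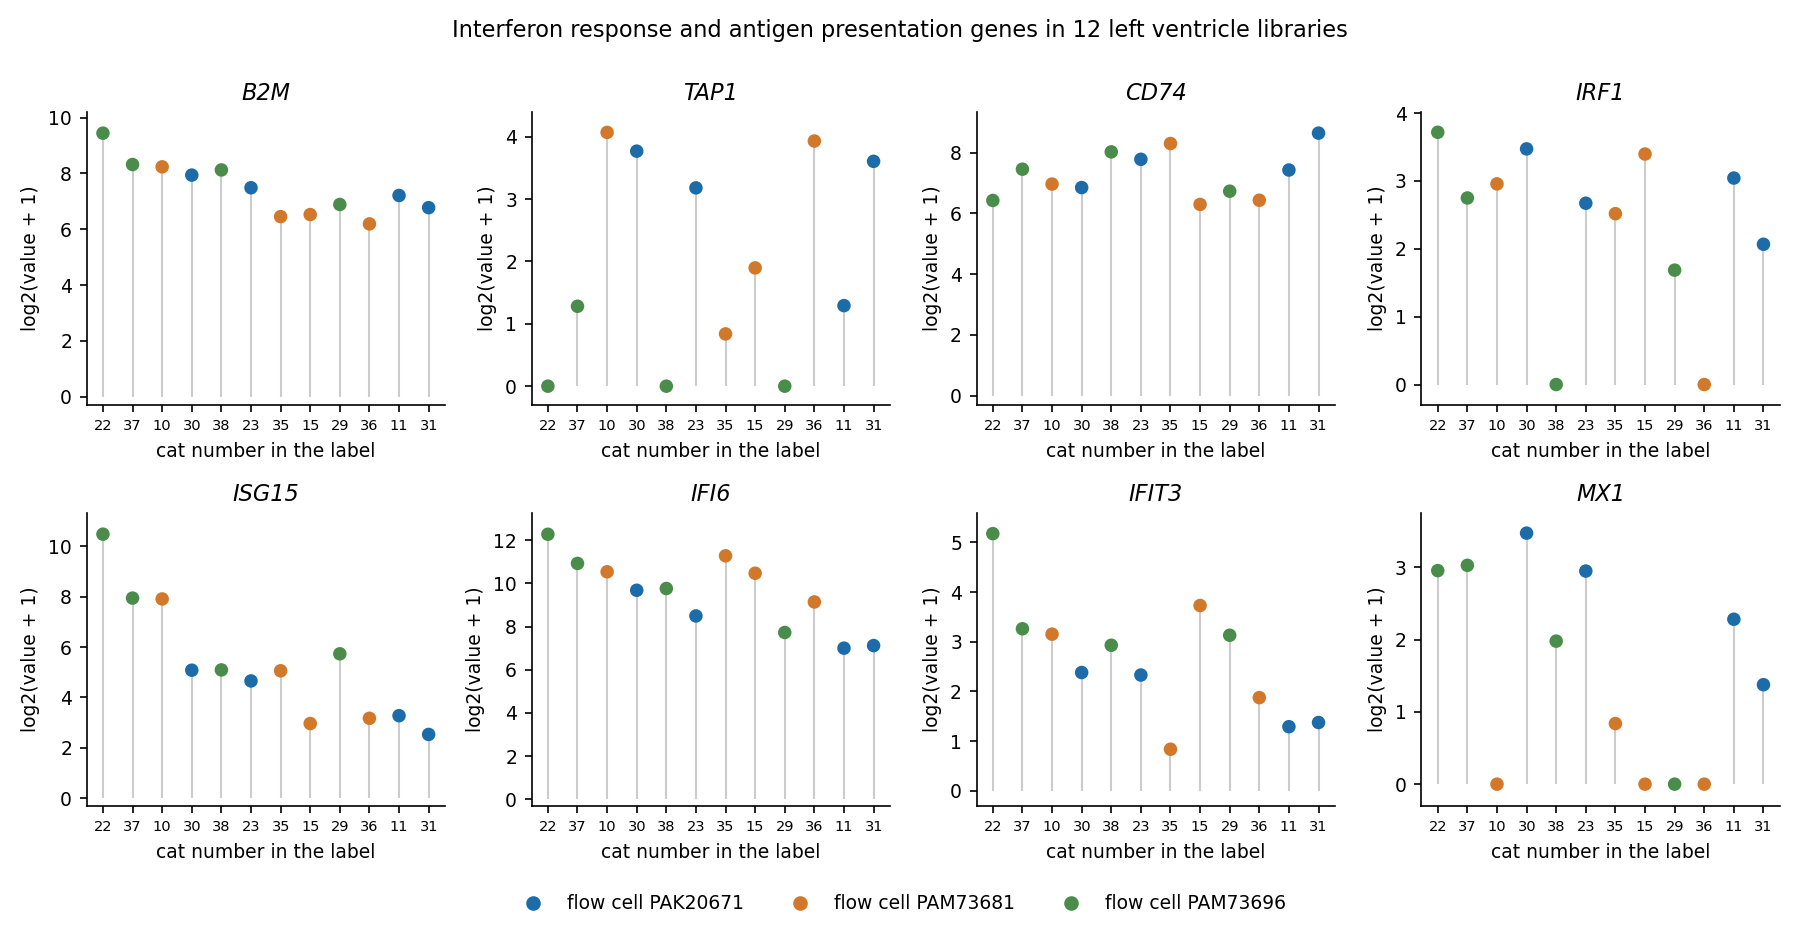
Level of each gene in each library as log2(normalised read count + 1), 1 point per library coloured by flow cell, with libraries ordered by the mean level of *ISG15*, *MX1*, *IFI6* and *IFIT3*. *ISG15* fell from 1423 in the library labelled cat 22 to 4.79 in cat 31, while *CD74* was highest in cat 31.

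To see whether the wider interferon programme followed these genes, a list of 64 interferon-stimulated effectors was used, of which 48 were in the table and 25 were tested, *ISG15* and *IFI6* among them. The library labelled cat 22 held the highest value of 17 of these 25 genes (68%), against 6.70% of all tested genes. These 17 included *ISG15* and *IFI6*, whose highest values were already known to lie there. Cat 37 held the highest value of 4 of the 25 (16%), against 7.12% of all tested genes. With reads scaled by their total, a choice made after seeing the data, the library labelled cat 22 led for 18 of the 25, and with TMM factors for 17. *OAS1*, which makes the signal that activates RNase L, had a normalised read count of 94.5 in the library labelled cat 22, 41.5 in cat 37 and 29.3 in cat 10, around a median of 10.9. *DDX58*, which encodes the RNA sensor RIG-I, had 107 in the library labelled cat 22 and 64.4 in cat 37, around a median of 19.1. *UBA7*, the enzyme that activates ISG15 for attachment, had 52.7 in the library labelled cat 22 and 14.3 in cat 37, around a median of 7.87. *USP18*, which removes ISG15 again, reached 36.5 in the library labelled cat 22, around a median of 6.13. *LAP3*, an aminopeptidase and the most deeply read of the list after the followed genes, was highest in cat 37 with 172, around a median of 113. *IDO1*, a tryptophan-degrading enzyme named here after its values were seen, had its highest values in cats 35 (59.9) and 11 (49.7), against 10.8 in the library labelled cat 22.

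**Figure D2:**
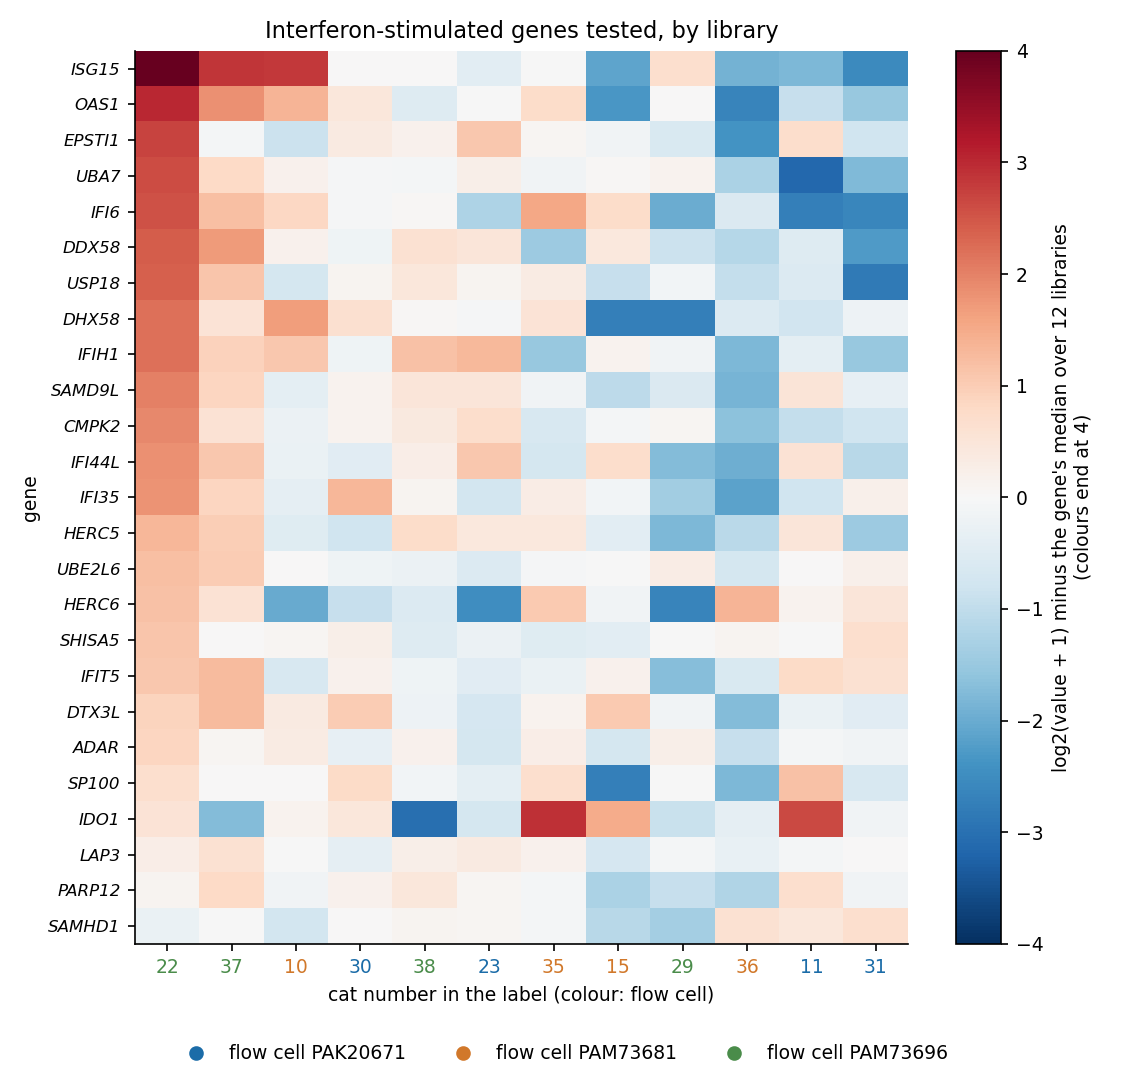
The 25 tested interferon-stimulated effectors (lines) in the 12 libraries (columns, ordered as in the plot of the single genes), each as log2(normalised read count + 1) minus the gene's median over libraries. The column of cat 22 is red for nearly all genes, with 17 of the 25 at their highest, whereas *IDO1* is highest in cats 35 and 11.

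**Figure D3:**
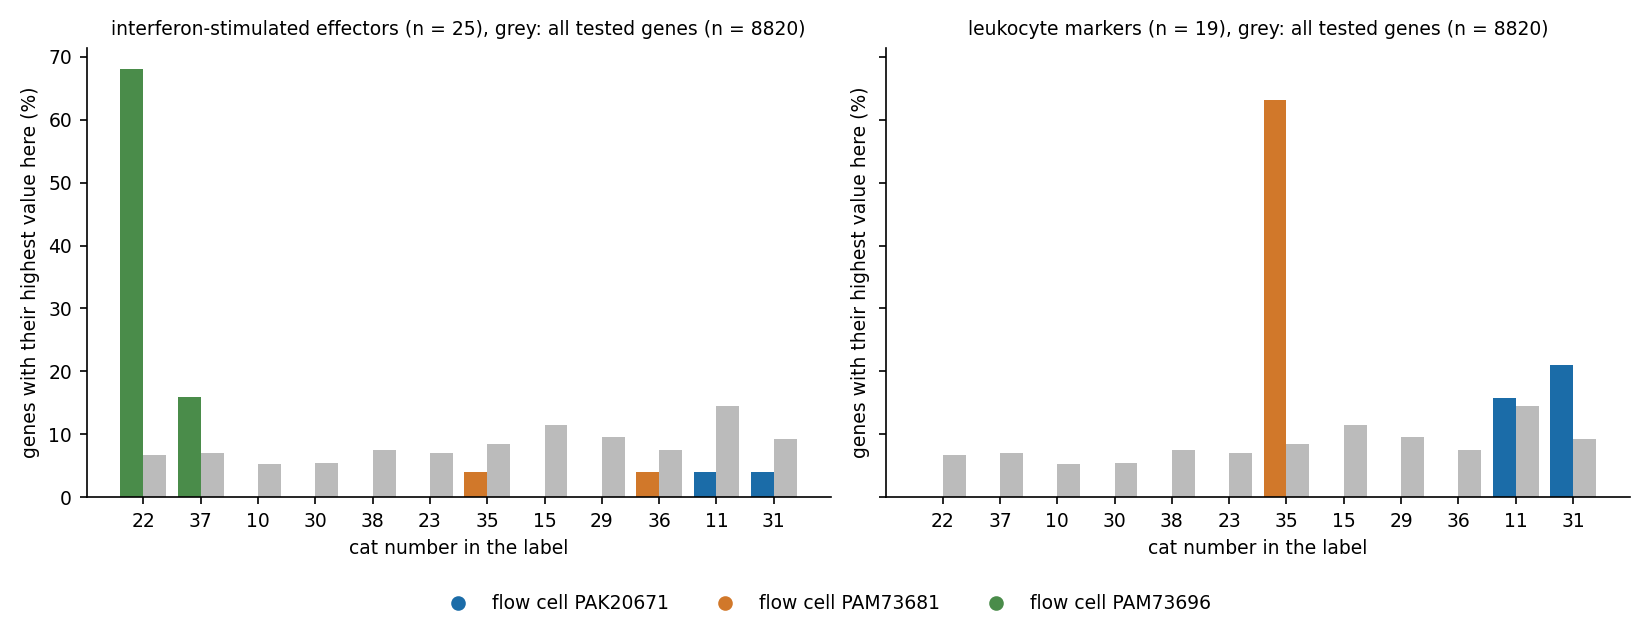
Percentage of genes that had their highest normalised read count in each library, for 25 interferon-stimulated effectors (left) and 19 leukocyte markers (right), beside all 8820 tested genes in grey. The effectors peak in the library labelled cat 22 (68%) and the leukocyte markers in cat 35 (63.2%).

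The mean log2 level of *ISG15*, *MX1*, *IFI6* and *IFIT3* was taken as an interferon score. It was 7.72 in the library labelled cat 22, 6.29 in cat 37 and 5.40 in cat 10, and lowest in cats 36 (3.55), 11 (3.46) and 31 (3.10). As a description over 12 libraries, 21 of the 23 other tested effectors (91.3%) had a positive Pearson's r with this score, with a median r of 0.64, against 48.6% and -0.01 for all tested genes. Without the library labelled cat 22, an alternative added after seeing the data, the median r of the effectors was 0.47. Among the tested genes most like the score were *AGRN* (r = 0.91), *B2M* (0.88), *UBA7* (0.88) and *DDX58* (0.88), followed by *PDZRN3*, *OAS1*, *USP18*, *TRAPPC10* and LOC101100838. These genes were picked as the highest of 8818, so the coefficients carry no test, and all points share the same size factors.

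*ISG15* was most like *OAS1* (r = 0.93), and *IFI27L2* (0.88) was also among the genes nearest to it. Among the genes nearest to *B2M* were *TMEM131* and *TRAPPC10*, both with r = 0.87. *IFI6* was most like *ORMDL3* (r = 0.87), *B4GAT1* and LOC102902102, none of which was on the interferon lists. *IFIT3* was most like *VEGFA* (r = 0.92), *MICU3* and *SIK1*, and *IRF1* was most like *ZNFX1* (r = 0.87), *PDIK1L* and *IFI16*. *MX1* was most like *EPB41L1* (r = 0.91), *GNG12* and *ITCH*, and *TAP1* was most like *POLR1D* (r = 0.88), LOC111560417 and *TAS2R9*, but *MX1* and *TAP1* themselves had few reads.

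*CD74* was most like *SLC26A3* (r = 0.96), *DRA* (0.94), which encodes the alpha chain of a class II molecule, and *CSF1R* (0.91), the macrophage growth factor receptor. The normalised read count of *DRA* was 45.5 in cat 31, 36.2 in cat 35, 28.2 in cat 23, 27.9 in cat 38 and 25.1 in cat 11, and at most 10.0 in the other libraries. The same 2 libraries, cats 31 and 35, were highest for *CD74*, *DRA* and *CTSS*, the protease that trims the invariant chain, which had 207 and 167. Of the 19 tested leukocyte markers, 19 had a positive r with *CD74*, with a median of 0.70, against 51.7% and 0.02 for all tested genes. With the interferon score, 0 of the 19 had a positive r, and the median was -0.53. Of the endothelial markers, 13 of 14 had a positive r with the score (median 0.39), and of the cardiomyocyte markers 11 of 12 (median 0.20). All tested genes had 48.6% and -0.01. The genes of the score differed here. Of the 12 cardiomyocyte markers, 12 had a positive r with *ISG15*, 11 with *IFIT3*, 10 with *IFI6* and 1 with *MX1*. The library labelled cat 22 had the highest mean log2 level of the endothelial markers, 5.88, and held the highest value of 4 of the 14 (28.6%), against 6.70% of all tested genes. The part of these cell types in the interferon score was not tested. Cat 35 held the highest value of 12 of the 19 leukocyte markers (63.2%), against 8.44% of all tested genes, and the library labelled cat 22 of 0. The summed normalised read count of the 34 leukocyte markers in the table was 3339 in cat 35, 1400 in cat 11 and 1054 in cat 31, and 198 in the library labelled cat 22. The T, NK and B cell genes of the list had at most 9 reads in any library, and *CD3D*, *MS4A1* and *GZMB*, named after their values were seen, had none. The part of leukocyte number in the level of *CD74* was not tested.

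Relations between the genes were tested over the 12 libraries as 28 pairs of genes, 24 relations with the mean log2 level of a marker list and 8 with depth. Permutation tests with 100000 resamples were two-sided and adjusted by Benjamini-Hochberg over these 60 relations. Of the 28 pairs, 17 had a positive r, the median r was 0.17, 6 had a permutation p under 0.05 and 1 remained after adjustment. That pair was *B2M* and *ISG15*, with Pearson's r = 0.85 (permutation p = 0.00053, adjusted p = 0.0159) and Spearman's rho = 0.80 (permutation p = 0.00235, adjusted p = 0.0470). With each flow cell centred on its own mean, r was 0.87 (permutation p = 0.0035, adjusted p = 0.0525). Without the 2 libraries farthest from the median, cats 22 and 36, r was 0.70, and without the library labelled cat 22 alone it was 0.73 (adjusted p = 0.221), so the call rested on that library. Centring also changed which pair was called: *MX1* and *IFI6* had r = 0.10 (permutation p adjusted to 0.849) over all libraries but r = 0.90 within flow cells (permutation p = 0.00217, adjusted p = 0.0434), with no *MX1* read in 4 of the 12 libraries.

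Other pairs of the interferon-stimulated genes had a positive r and missed the adjusted threshold. For *ISG15* and *IFI6*, r was 0.68 (permutation p adjusted to 0.132), and for *ISG15* and *IFIT3* it was 0.70 (permutation p adjusted to 0.129). *CD74* had a negative r with *IFIT3*, -0.63 (permutation p adjusted to 0.186), and with *ISG15*, -0.27 (permutation p adjusted to 0.568).

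With cell type markers, 2 relations passed. *IFIT3* was lower where the leukocyte markers were higher, with r = -0.90 (permutation p = 5e-05, adjusted p = 0.0030) and rho = -0.91 (adjusted permutation p = 0.0096). The relation had r = -0.87 within flow cells (adjusted permutation p = 0.0120) and r = -0.87 without cats 22 and 35. *IFIT3* had 1 to 26 reads, and its r with depth was -0.66 (adjusted permutation p = 0.144). *IRF1* was higher where the endothelial markers, such as *VWF* and *CDH5*, were higher, with r = 0.80 (permutation p = 0.00118, adjusted p = 0.0236) and rho = 0.87 (adjusted permutation p = 0.0147). Within flow cells r was 0.87 (adjusted permutation p = 0.0120), and without cats 36 and 38, the libraries with no *IRF1* read, it was 0.73. Without the library labelled cat 22, r was 0.77 (adjusted permutation p = 0.128), so this call was also lost. *IFIT3* and the leukocyte markers kept r = -0.90 (adjusted permutation p = 0.00480) without that library. *IRF1* had at most 15 reads, and its r with depth was -0.49 (adjusted permutation p = 0.288). Within flow cells, its r with depth was -0.60 (adjusted permutation p = 0.184). *CD74* and the leukocyte markers had r = 0.71 (permutation p = 0.00816, adjusted p = 0.122) and rho = 0.68 (adjusted permutation p = 0.261), and leaving out cats 31 and 35 gave r = 0.46.

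**Figure D4:**
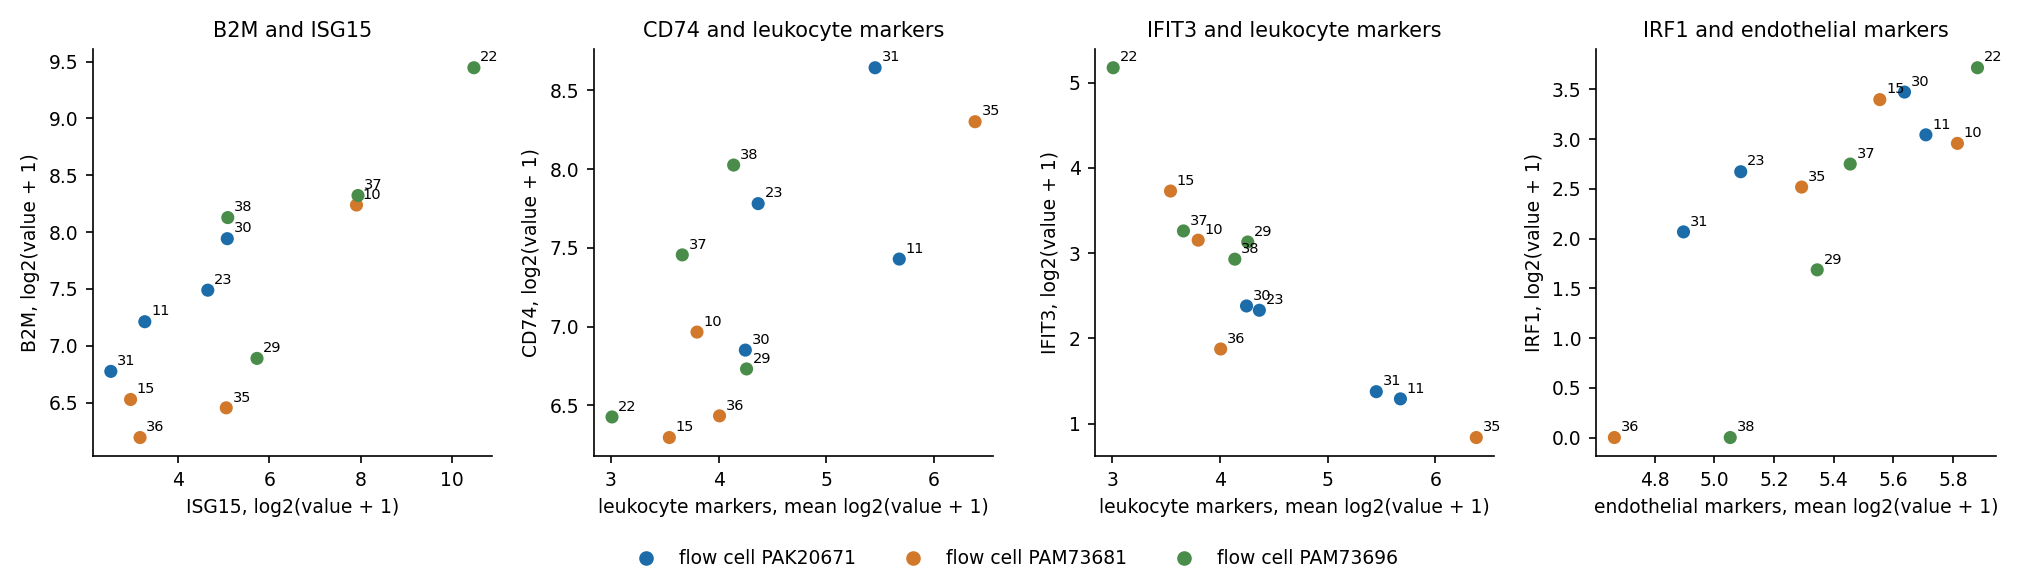
Level of a gene against that of another gene or a marker list in the 12 libraries, both as log2(normalised read count + 1), with points numbered by cat and coloured by flow cell and marker lists shown as the mean of their tested genes. *B2M* rises with *ISG15* (r = 0.85) with cat 22 at the far end, *IFIT3* falls with the leukocyte markers (r = -0.90) and *IRF1* rises with the endothelial markers (r = 0.80).

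Flow cells, the only grouping in the labels, were compared with limma on log2(normalised read count + 1) over all tested genes, with Benjamini-Hochberg adjustment. Of the 5 followed genes that were tested, 0 passed an adjusted p of 0.05 in any comparison. Over all 8820 genes, the F test called 223 (2.53%), flow cell PAK20671 against the others called 474 (5.37%), of which 314 (3.56% of the genes tested) were lower in PAK20671, and PAM73681 against PAM73696 called 0 (0%). At an unadjusted p under 0.05 these 3 tests picked 1753, 1934 and 696 genes. edgeR's quasi-likelihood test on the recovered reads called 0 followed genes, and DESeq2 called 2. DESeq2 also called more of all genes, 832 of 8820 between PAK20671 and the others, against 474 by limma.

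*IFI6* came nearest to the threshold. Its median normalised read count was 248 (127 to 819) on PAK20671, 1449 (563 to 2477) on PAM73681 and 1403 (211 to 4947) on PAM73696. The difference of PAK20671 from the others was -2.19 on the log2 scale (SE 0.66, limma adjusted p = 0.0646), and the adjusted p ranged from 0.0175 to 0.255 over the 22 alternatives. The 3 ranges overlapped. *ISG15* was at a median of 16.4 (4.79 to 32.8) on PAK20671, 20.2 (6.81 to 239) on PAM73681 and 148 (33.1 to 1423) on PAM73696. The ranges of PAM73696 and PAK20671 met between cat 38 (33.1) and cat 30 (32.8), whose order turned in RPM (27.6 and 32.1), and the PAK20671 difference of -2.16 (SE 0.95, limma adjusted p = 0.198) missed the threshold. The difference of *ISG15* between PAM73681 and PAM73696 was -2.53 (SE 1.09, limma adjusted p = 0.584). DESeq2 called *ISG15* and *IFI6* lower in PAK20671 (adjusted p = 0.0382 and 0.0369), where limma and edgeR made no call.

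*B2M* had limma log2 differences of -0.17 (SE 0.42, adjusted p = 0.848) for PAK20671 against the others and -1.34 (SE 0.48, adjusted p = 0.478) for PAM73681 against PAM73696. *CD74* had 0.60 (SE 0.39, limma adjusted p = 0.391) and -0.16 (SE 0.45, limma adjusted p = 0.965). *TAP1* had 1.46 (SE 0.73, limma adjusted p = 0.252) and 2.36 (SE 0.84, limma adjusted p = 0.478), with at most 1.43 on PAM73696.

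**Figure D5:**
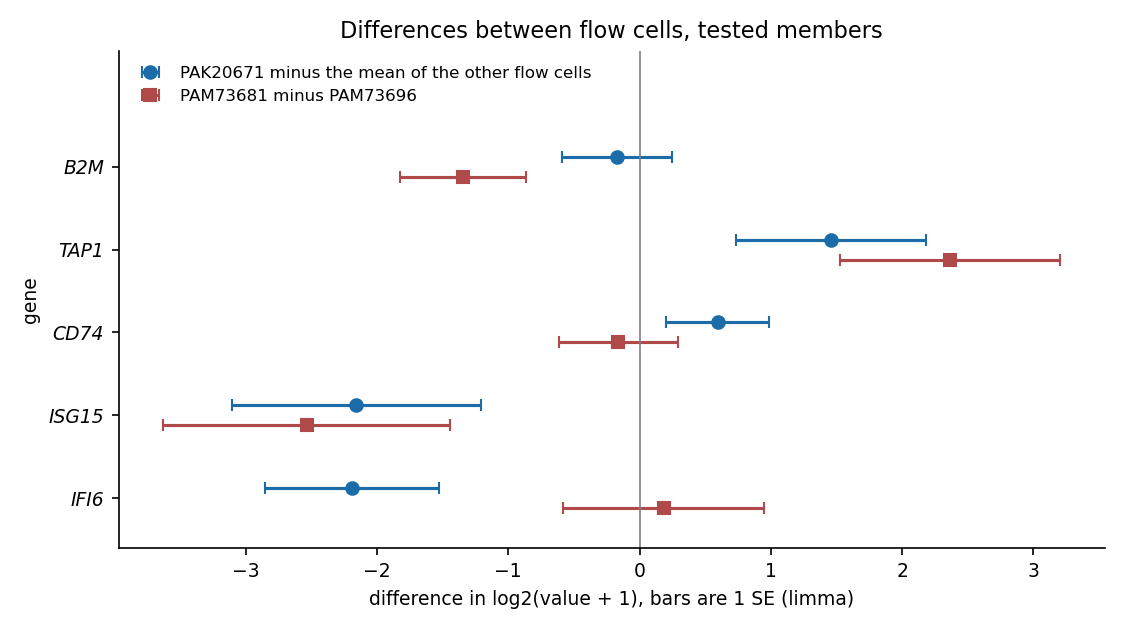
Difference in log2(normalised read count + 1) between flow cells for the 5 tested genes, with points for the limma estimate and bars for 1 SE. *ISG15* and *IFI6* lie at -2.16 and -2.19 for PAK20671 against the others, and no gene passed the adjusted threshold.

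Among the related genes, 1 of 10 tested class I genes was called between PAK20671 and the others, and it was lower: *PSME1*, a subunit of the proteasome activator, at -0.94 on the log2 scale (SE 0.24, limma adjusted p = 0.0308). Of all tested genes, 5.37% were called in that comparison and 0% between PAM73681 and PAM73696. Of the 7 tested class II genes, the 25 effectors and the 19 genes of interferon sensing and signalling, 0 were called by limma in either comparison. Between PAM73681 and PAM73696, the median log2 differences were -0.35 for class I, -0.28 for class II, -0.78 for the effectors and 0.00236 for signalling. The median of all tested genes was -0.00197. Of the 25 effectors, 21 were lower in PAM73681, against 4426 of all 8820 tested genes. For PAK20671 against the others, the medians were -0.05 for class I, 0.58 for class II, -0.28 for the effectors and 0.24 for signalling. All tested genes had a median of 0.03 there. Cell type markers moved with the same comparison: 8 of 12 cardiomyocyte markers were lower in PAK20671, such as *MYBPC3* (-1.82, SE 0.27, limma adjusted p = 0.00232), and 4 of 9 fibroblast markers were higher, such as *COL1A1* (2.63, SE 0.36, limma adjusted p = 0.00232). Over all 8820 tested genes, 314 (3.56%) were called lower in PAK20671 and 160 higher. The median difference of the 19 leukocyte markers was 0.63, with 0 called. The part of these cell types in the differences of the followed genes was not tested.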

How the data were processed

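Per the study's methods, the authors called bases with Guppy, kept reads above a quality score of 7, aligned these to felCat9 using Minimap2 and summarised reads per gene using FeatureCounts. Whether strand was used is not given in the sources used here. The signal values the authors deposited are reads divided by 1 size factor per library: dividing each value by what 1 read is worth gave whole numbers for 100% (tolerance 1e-06). The size factors matched recomputed median-of-ratios factors to a relative 2.89e-15, so whole reads were recovered.

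Of 14375 rows named by LOC and a number, 11195 matched the gene table of assembly F.catus_Fca126_mat1.0, which was used for names only. Testing required 10 or more reads in 3 or more of the 12 libraries. limma with an intensity trend was fitted on log2(value + 1), so fold changes of low genes are understated, with Benjamini-Hochberg adjustment over 8820 genes. In simulated data, 200 genes drawn at random from those tested were changed by 2 or 3 on the log2 scale. Of the genes changed by 2, limma recovered 88% for PAK20671 against the others and 78% for PAM73681 against PAM73696. *ISG15* and *IFI6* had higher coefficients of variation than 99.98% and 97.9% of the tested genes, so these percentages do not give the recovery for them. Correlations used log2(value + 1) with 100000 resamples. Named were the genes followed, called list genes (up to 4 per direction), the 3 deepest genes of a list, and the genes most like each (3, or 10 for the score). A gene that this rule would name is not reported here.

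Alternatives were other pseudocounts (0.5 and 2), filters, TMM and total-read scaling, edgeR, DESeq2, barcode as a block, each library left out and cats 22 and 29 left out. Those added after seeing the data are named as such. The genes, lists and tests were chosen with earlier results of these data known. Library depth, 789257 to 2263110 reads, limits genes with few reads. Transcript lengths, coordinates and sequences were not used. The tools were R 4.3.3, limma 3.58.1, edgeR 4.0.16, DESeq2 1.42.0, scipy 1.17.1, pandas 2.3.3, matplotlib 3.10.9 and numpy 2.4.6 under Python 3.11.15.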

Additional observations from a re-analysis of the deposited data

Results flagged for a closer look

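Within each flow cell, the highest or lowest of its 4 libraries was compared with the rest by Dixon's ratio, the gap to the nearest library divided by the whole range, over 24 groups of normalised read counts. Of these, 6 passed the 95% limit, and in each the library that stood apart was the highest. That limit assumes normally distributed values, and these counts were not put on the log scale. The number flagged therefore cannot be set against chance and is a description only.

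*ISG15* stood apart in the library labelled cat 22 on PAM73696 (ratio 0.848), with 1423 against 33.1 to 245 in the other libraries. *IFIT3* stood apart in the same library (ratio 0.931), with 35.1 against 6.62 to 8.58. *ISG15* in cat 10 on PAM73681 (ratio 0.890) had 239 against 6.81 to 32.3, and *B2M* in cat 10 (ratio 0.917) had 301 against 72.1 to 91.2. The ratio of 1 for *TAP1* in cat 37 on PAM73696 and for *MX1* in cat 35 on PAM73681 came from 1 read each, with no read in the other 3 libraries.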

How the results depend on the processing

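The comparison of flow cells depended on the tool and on single libraries. Genes called between PAK20671 and the others numbered 474, with 832 by DESeq2, 255 without cats 22 and 29, and 54 to 529 with 1 library left out; it was 54 without cat 11, 165 without cat 31, 283 without cat 15 and 314 without cat 29. The F test called 223 genes, with 662 by DESeq2, 350 with barcode as a replicate block, 78 without cats 22 and 29, and 31 to 257 with 1 library left out (31 without cat 11, 35 without cat 31 and 114 without cat 15). Between PAM73681 and PAM73696, 0 genes were called, with 23 by DESeq2, 1 each with a pseudocount of 2, total-read scaling or cats 22 and 29 left out, and 0 to 2 with 1 library left out. Of the followed genes, DESeq2 called 2, the fit without cats 22 and 29 called 1, and fits without 1 library called 0 to 1. That gene was *IFI6* (-2.28, limma adjusted p = 0.0345, without both; -2.73, adjusted p = 0.0297, without cat 30; -2.60, adjusted p = 0.0175, without cat 29). The number of called pairs was 0 without cats 22 and 29 and 0 to 4 with 1 library left out: 4 without cat 15, 3 without cat 35 and 0 without cat 22. With flow cells centred the called pair was *MX1* and *IFI6* in place of *B2M* and *ISG15*. For *B2M* and *ISG15*, r was 0.78 without cats 22 and 29 (adjusted permutation p = 0.127). Small differences turned their sign: *B2M* for PAK20671 became 0.0378 with total-read scaling and ranged from -0.39 to 0.0607 with 1 library left out (positive without cats 31, 10 or 22), *CD74* for PAM73681 against PAM73696 ranged from -0.59 to 0.13 (positive without cats 15, 36 or 38), and *IFI6* in the same comparison became -0.42 by edgeR and by DESeq2 and ranged from -0.63 to 0.88 (negative without cats 29 or 35). The median r with the interferon score was also taken without the library labelled cat 22, an alternative added after seeing the data. It went from -0.18 to 0.00697 for signalling genes, from 0.02 to -0.10 for class II genes and from 0.32 to 0.08 for class I genes. The causes were not tested. Barcode numbers were shared across flow cells. Between libraries with the same barcode, deviations from the flow cell mean had r from -0.08 to 0.11. Pairs with different barcodes were not measured beside them. With barcode as a block, 569 genes were called for PAK20671 and 0 followed genes. The other 219 values for single genes, pairs and lists kept their direction and side of the threshold. Depth limits *MX1*, *TAP1*, *IRF1* and *IFIT3*, which had at most 26 reads in a library.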

Other observations

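Of the genes for interferons themselves, *IFNB1*, *IFNG*, *IFNK* and *IFNE*, named after their values were seen, had no read in any of the 12 libraries, so each had at most 3 reads per library within counting error. The interferon gamma receptor chains were detected in every library, with *IFNGR2* from 119 to 332 and *IFNGR1* from 44.9 to 86.9. Of the type I receptor chains, also named after their values were seen, *IFNAR2* had 1 to 28 reads and *IFNAR1* 0 to 9, with no read in 2 libraries. *IFNLR1*, of the lambda receptor, had no read in 8 libraries. *IRF9*, a transcription factor of the interferon response, was highest in the library labelled cat 22 (39.2) and in cat 30 (29.5), and *STAT2* in cat 37 (68.7) and in the library labelled cat 22 (52.7). Signalling genes as a list did not follow the interferon score: the median r of the 19 tested genes was -0.18.

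Leukocyte genes stood far apart in cat 35. *S100A9*, a neutrophil protein, had a normalised read count of 637 in cat 35 around a median of 38.9, and *C1QB*, a complement gene of macrophages, had 426 around a median of 77.2. Cat 35 had the lowest *IFIT3* value (0.788) and the second highest *IFI6* (2477) and *CD74* (314).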
